A study of Homo sapiens with 6 samples.

Results

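The DNA replication machinery comprises the proteins that mark origins, load and switch on the replicative helicase, copy both strands and supply the precursors. Here it was represented by 53 genes chosen by name, as a list of replication factors, with earlier results of these data known. They were matched to the count table through their Ensembl identifiers. All 53 had a row among the 22718 genes of the table, all 53 passed the filter on low counts that left 16084 genes for testing, and no member had fewer than 285 counts in any library. RNA sequencing compared 6 libraries labelled HT1197, a name that belongs to an established human bladder carcinoma line. The 3 vehicle libraries (A, B and C) came from cells kept for 48 hours in 1% DMSO, and the 3 panobinostat libraries (A, B and C) from cells kept for 48 hours in panobinostat, an inhibitor of histone deacetylases, at 2 times the IC50, the usual measure of an inhibitor's potency. All libraries are of 1 line seeded in triplicate dishes, and the labels do not tie a library to a dish, so p-values cover only the spread among these 6 samples, and that spread may be technical. The comparison asks how transcripts of the replication machinery differed after the inhibitor.

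Origins are bound by the origin recognition complex (ORC), which with CDC6 and CDT1 loads the ring of MCM2 to MCM7 onto DNA before S phase. The kinase CDC7 with DBF4, together with MCM10, then helps turn this ring into the active helicase, which carries CDC45 and the GINS complex. Polymerase alpha with primase starts each strand, polymerases epsilon and delta extend them on the PCNA clamp, and RPA covers the exposed single strands. Many of these genes are known targets of the E2F transcription factors and are transcribed toward S phase. In bulk RNA, fewer cells in S phase and less transcript per cell cannot be told apart.

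Total counts per library ran from 13417898 to 18186087. Libraries of an arm correlated at a Spearman rho of 0.993 to 0.997 across genes, against 0.941 to 0.95 between arms, which describes genes and not independent replicates. The markers of the labelled cell type were largely missing. Of 20 urothelial and epithelial markers 10 had a row, and 1, GATA3, reached 10 FPKM (counts scaled by gene length and library total) in the vehicle mean. UPK1B, FOXA1 and TP63 had 0 vehicle counts. Of 16 noradrenergic neuroblast markers, 15 reached 10 FPKM. The libraries are therefore called by their label only. The summed level of the neuroblast markers was 2126 to 2419 FPKM in the vehicle libraries and 1748 to 1843 FPKM with panobinostat, and the fibroblast markers summed to 62.1 to 65.3 and 95.6 to 102 FPKM. LUM alone, from 0.654 ± 0.102 to 42.4 ± 1.09 FPKM, exceeded the difference in that sum, and of the 8 fibroblast markers tested 5 rose while PDGFRA, THY1 and FBLN1 fell. The leukocyte and endothelial markers summed to at most 1.09 and 0.564 FPKM. The part of these markers in the results below was not tested.

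Most replication genes were lower after panobinostat. Of the 53 genes, 41 fell, 4 rose and 8 did not pass an adjusted p of 0.05 (edgeR's quasi-likelihood test, Benjamini-Hochberg over all genes tested). Of all genes tested, 31.5% fell and 33.7% rose. Among the 7191 genes tested whose mean lay within the range of the members, 26.4 to 997 CPM (counts scaled to a common library size with TMM factors), 45.7% fell and 24.2% rose, so 77.4% of the members fell against 45.7% of genes of that range. The median log2 fold change was -0.52 over the members, a fall of 30.2%, and 0.01 over all genes tested. MCM5 and MCM7, subunits of the helicase ring, were the 2 members that fell by 2-fold or more, and 22 fell by 1.5-fold or more, against 5.27% and 15.1% of all genes. The arms did not overlap in 46 of the 53 members, against 68.8% of all genes: 42 members were lower in every panobinostat library (33.4% of all genes) and 4 were higher (35.5%). The 2 that were lower in every library without passing were CDT1 and GMNN. The 45.7% is the background for each later count of falls by group, and the 68.8% for each later statement on overlap of a single gene. No such share was computed for the ratios of genes or the sums over genes.

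**Figure D1:**
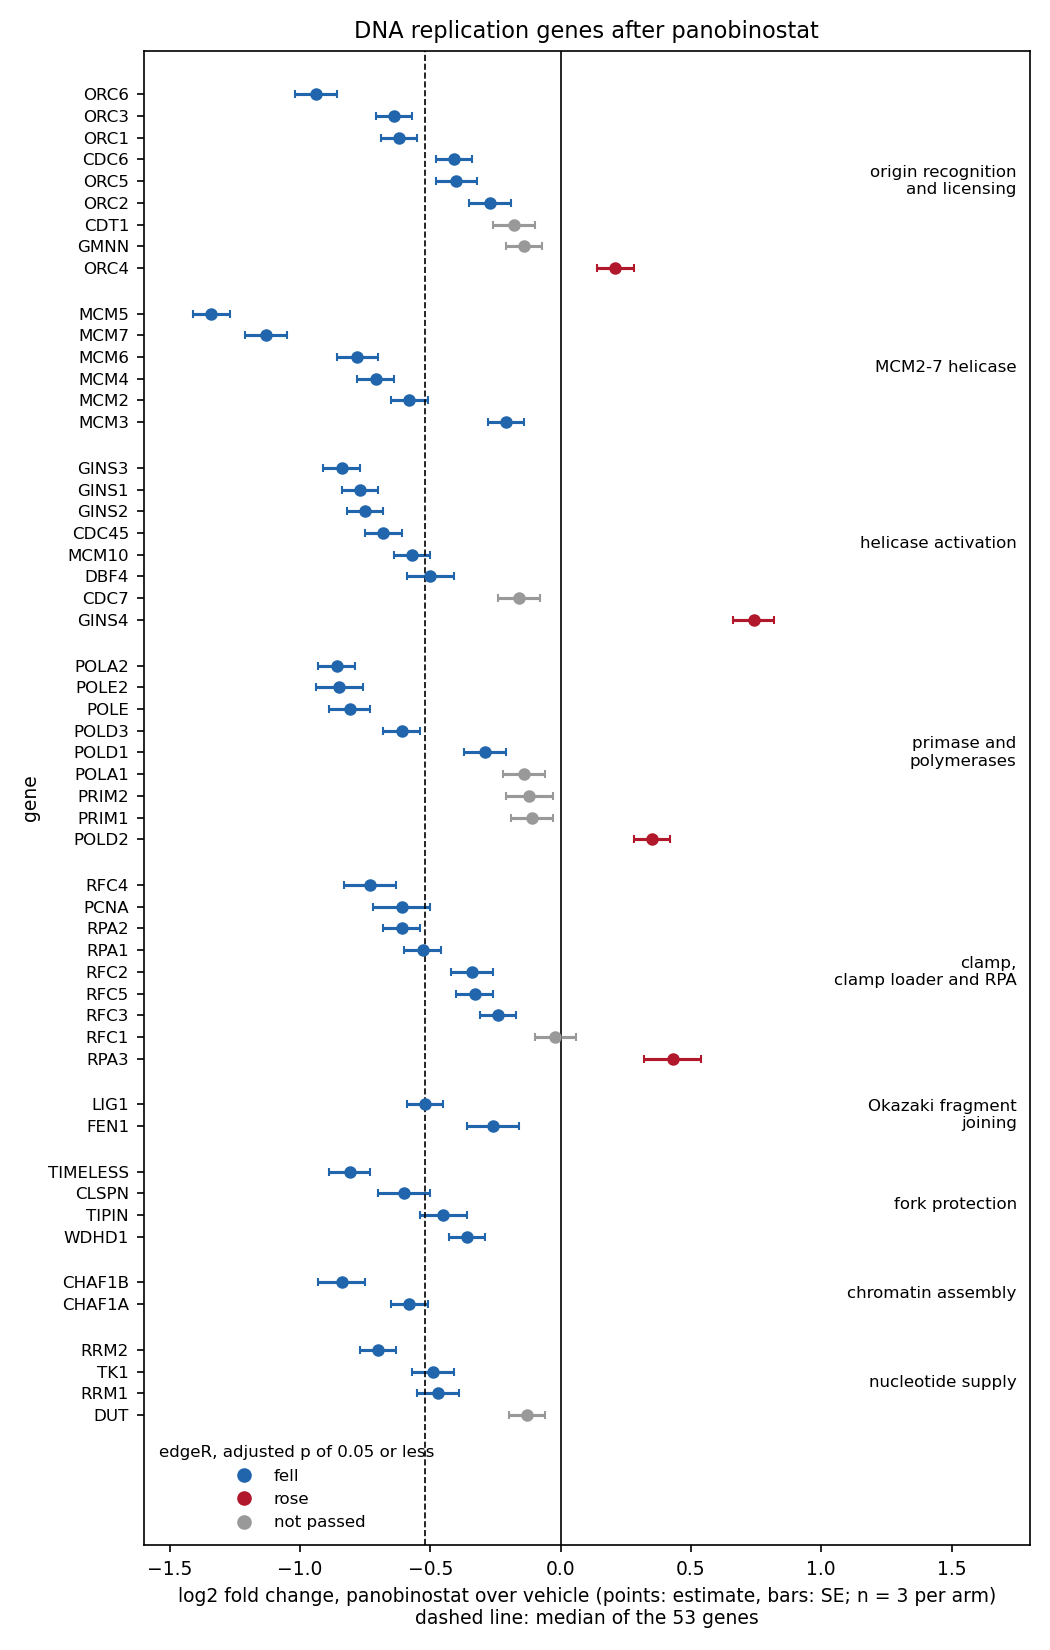
Log2 fold change of each of the 53 replication genes, panobinostat over vehicle, with its standard error (bars), grouped by role; colours give the call and the dashed line the members' median of -0.52. The 4 genes to the right of 0 that passed (ORC4, GINS4, POLD2 and RPA3) each belong to a complex in which other subunits fell.

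**Figure D2:**
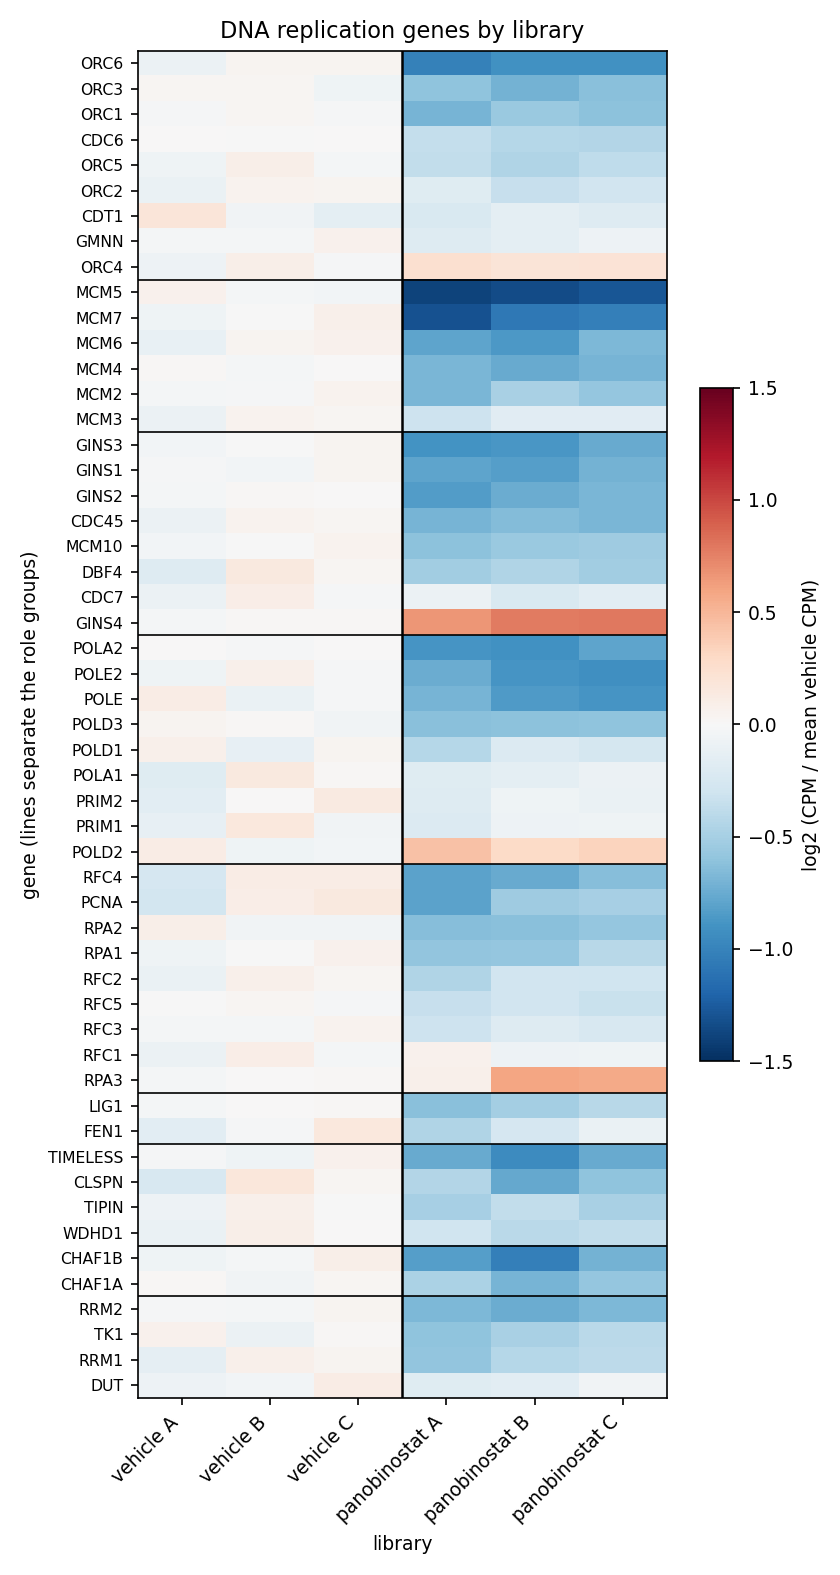
Level of each replication gene (rows, grouped by role) in each of the 6 libraries (columns), as log2 of its CPM over its mean vehicle CPM. The 3 panobinostat columns are blue for most rows, and the red rows are ORC4, GINS4, POLD2 and RPA3.

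Promoter windows from RefSeq (GRCh38.p14, 250 bases before to 50 after an annotated start) were matched by symbol for 47 of the 53 genes. Windows on the chromosome that carries both MCM4 and GINS4 were left out before matching, so these genes have none. MCM5, POLD3, RPA2 and RPA3 were not matched. GINS4 and RPA3, which rose, are therefore outside the counts below. An E2F core was searched on either strand in several spellings, TTCGCGC and also TTGGCGC, besides these TTCCCGC and also TTGCCGC. It was present in 27 of the 37 windows of genes that fell (73.0%), in 5 of 8 of those that did not pass, and in 0 of the 2 of genes that rose, ORC4 and POLD2. The core was present in 20.3% of the 10837 windows of genes tested and in 13.1% of the 27305 windows kept, with 1 window taken per gene. With any window of a gene counted, 29 of the 37 fallen genes and 24.5% of tested genes held a core. The CCAAT box (CCAAT, either strand) was in 53.2% of member windows and 36.7% of tested windows, the GC box (GGGCGG) in 74.5% and 69.9%, and the CHR element (TTTGAA or TTCGAA) in 6.38% and 11.2%. Words of different motifs may overlap, as an E2F core and a CCAAT box do in MCM7.

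The windows shown are those of the largest fall with a window among the origin (ORC6), helicase (MCM7), polymerase (POLA2) and nucleotide supply genes (RRM2) and of the matched genes that rose (ORC4 and POLD2). They are shown because the first set moved against the second. Each is written 5′ to 3′ on the gene's strand, with E2F cores in capitals.
ORC6 (chr16:46689409-46689708, plus strand): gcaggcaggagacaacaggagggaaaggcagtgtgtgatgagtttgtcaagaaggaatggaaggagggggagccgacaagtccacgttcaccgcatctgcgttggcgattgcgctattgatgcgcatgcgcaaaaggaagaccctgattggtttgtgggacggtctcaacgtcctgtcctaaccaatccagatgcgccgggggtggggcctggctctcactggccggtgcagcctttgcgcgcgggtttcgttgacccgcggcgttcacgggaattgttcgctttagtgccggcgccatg
MCM7 (chr7:100101348-100101647, minus strand): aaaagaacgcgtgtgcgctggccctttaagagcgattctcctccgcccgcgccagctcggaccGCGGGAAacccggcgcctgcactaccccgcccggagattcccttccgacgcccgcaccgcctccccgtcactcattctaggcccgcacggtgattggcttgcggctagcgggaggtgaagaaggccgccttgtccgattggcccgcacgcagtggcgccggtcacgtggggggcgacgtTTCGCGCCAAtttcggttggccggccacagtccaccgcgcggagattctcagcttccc
POLA2 (chr11:65261712-65262011, plus strand): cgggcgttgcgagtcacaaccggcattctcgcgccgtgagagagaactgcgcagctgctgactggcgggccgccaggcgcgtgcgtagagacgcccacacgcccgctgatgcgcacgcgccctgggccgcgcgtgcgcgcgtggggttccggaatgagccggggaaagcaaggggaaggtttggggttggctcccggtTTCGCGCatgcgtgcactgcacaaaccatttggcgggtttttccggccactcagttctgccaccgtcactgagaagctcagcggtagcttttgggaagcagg
RRM2 (chr2:10122318-10122617, plus strand): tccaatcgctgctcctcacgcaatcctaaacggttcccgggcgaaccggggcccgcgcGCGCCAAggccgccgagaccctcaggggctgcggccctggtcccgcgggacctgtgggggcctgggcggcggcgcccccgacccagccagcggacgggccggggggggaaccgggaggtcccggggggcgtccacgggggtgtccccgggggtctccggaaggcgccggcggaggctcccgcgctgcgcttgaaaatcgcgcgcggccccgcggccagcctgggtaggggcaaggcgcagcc
ORC4 (chr2:148021502-148021801, minus strand): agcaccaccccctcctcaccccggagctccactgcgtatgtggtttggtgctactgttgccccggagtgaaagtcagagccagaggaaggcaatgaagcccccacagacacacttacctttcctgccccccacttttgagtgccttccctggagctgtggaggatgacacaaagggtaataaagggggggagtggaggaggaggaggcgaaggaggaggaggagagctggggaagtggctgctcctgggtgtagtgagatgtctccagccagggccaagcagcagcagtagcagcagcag
POLD2 (chr7:44123499-44123798, minus strand): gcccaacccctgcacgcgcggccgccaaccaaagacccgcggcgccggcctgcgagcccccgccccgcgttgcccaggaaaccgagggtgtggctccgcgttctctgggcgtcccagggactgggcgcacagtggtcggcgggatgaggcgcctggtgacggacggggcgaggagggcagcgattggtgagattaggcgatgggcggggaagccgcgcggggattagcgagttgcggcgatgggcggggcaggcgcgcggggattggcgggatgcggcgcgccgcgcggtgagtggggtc
MCM7 held 3 cores, of which 2 overlap and read as 1 stretch of capitals that starts 8 bases before the annotated start. POLA2 held 1 core, 52 bases before its start, and RRM2 held 1, in its reverse orientation, 192 bases before. The windows of ORC6, ORC4 and POLD2 held no E2F core in the spellings searched. A related spelling that was not searched, TTGGCGGG, stands in the POLA2 and POLD2 windows. ORC6 held 2 CCAAT boxes, and POLD2 held 2 CCAAT boxes and 3 GC boxes. The last 30 bases of the POLD2 window lay in no transcript of GENCODE, the annotation used for symbols, unlike those of the other windows shown. A match describes letters in a window and is not a measured binding site.

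Origin recognition and licensing came first in the order of steps. Of its 9 genes 6 fell (66.7%, against 45.7% of genes in the members' CPM range), with a median log2 change of -0.40. ORC6, the smallest ORC subunit, stood at 88.3, 96.2 and 95.9 CPM in vehicle libraries A, B and C and at 46.4, 49.7 and 50 CPM in panobinostat libraries A, B and C (log2 change -0.94 ± 0.08, estimate ± SE, adjusted p = 5.91e-08). The treated libraries lay close together and far below every vehicle library. ORC3, another ORC subunit, went from 91.4, 91.7 and 85.5 CPM to 58.9, 54.9 and 58.1 CPM (-0.64 ± 0.07). ORC1, an ATPase of the complex, went from 94.5, 97.2 and 94.1 to 58.6, 64.6 and 62.1 CPM (-0.62 ± 0.07). These 2 subunits changed by nearly the same amount, and neither had overlapping arms, as was so for 68.8% of all genes tested.

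ORC4, also an ATPase-fold subunit of ORC, went the other way. It stood at 77.3, 86.5 and 79.9 CPM with vehicle and at 95.6, 92.7 and 93.3 CPM with panobinostat (0.21 ± 0.07, adjusted p = 0.0198). Its arms did not overlap, but the rise was small. It missed the threshold when vehicle A, vehicle C or panobinostat B was left out (adjusted p = 0.0584, 0.0898 and 0.0513), and also with DESeq2 or with no filter (0.0555 and 0.0678). ORC5 fell by 0.40 ± 0.08 and ORC2 by 0.27 ± 0.08 on the log2 scale, and ORC2 did not pass with library size alone (-0.16, adjusted p = 0.0799). Per length, ORC1 was the highest ORC subunit with vehicle (29 ± 0.437 FPKM, mean ± SD, n = 3) and ORC4 the lowest (8.75 ± 0.458 FPKM). That order depends on the gene lengths used: in vehicle CPM the lowest was ORC5 (49.8 ± 2.65), and ORC4 stood at 81.2 ± 4.78. With panobinostat ORC1 stood at 20.3 ± 0.996 and ORC4 at 10.9 ± 0.239 FPKM, so the ORC4 to ORC1 ratio went from 0.302 ± 0.013 to 0.539 ± 0.0356. This ratio was looked at after the values were seen and was not tested.

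CDC6, the ATPase that joins ORC, fell by 0.41 ± 0.07 on the log2 scale, from 269 ± 1.63 to 203 ± 5.83 CPM. CDT1, which brings the helicase to ORC, stood at 111, 94.4 and 88.7 CPM with vehicle and 83.9, 88.5 and 85.8 CPM with panobinostat, and it did not pass (-0.18 ± 0.08, adjusted p = 0.0677). Vehicle library A was the high one, and the fall passed with vehicle C left out (-0.26, adjusted p = 0.0287) or with no filter (-0.21, adjusted p = 0.0370). With vehicle A left out the change was -0.10, and scaling by library size or by upper quartile gave -0.07 and -0.05, none of which passed. GMNN, geminin, the inhibitor of CDT1, stood at 91.5, 91.0 and 97.3 CPM and at 81.7, 84.2 and 88.4 CPM (-0.14 ± 0.07, adjusted p = 0.104). The CDT1 to GMNN ratio within a library, from FPKM, was 0.899, 0.770 and 0.677 with vehicle and 0.762, 0.780 and 0.720 with panobinostat. These values overlapped, with a log2 difference of -0.04 (exact two-sided permutation p = 0.8, adjusted over 8 ratios 0.8).

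All 6 genes of the helicase ring fell, but by unequal amounts. MCM5 (ENSG00000100297, chromosome 22) stood at 295, 276 and 275 CPM with vehicle and at 108, 111 and 116 CPM with panobinostat, which left 0.396 of the vehicle level (-1.34 ± 0.07, adjusted p = 7.72e-10). MCM7 went from 770.2, 802 and 850.2 to 327, 384 and 398 CPM (-1.13 ± 0.08, adjusted p = 2.85e-08). MCM6 went from 275, 305 and 311 to 171, 164 and 186 CPM (-0.78 ± 0.08). In each of these 3 genes the lowest vehicle library stood well above the highest treated one. MCM4 fell by 0.71 ± 0.07, from 1239 ± 23.3 to 755 ± 18.5 CPM.

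At the other end of the ring, MCM2 stood at 329, 332 and 349 CPM with vehicle and at 209, 239 and 225 CPM with panobinostat (-0.58 ± 0.07). MCM3 stood at 559.8, 618 and 607 CPM and at 481, 531 and 528 CPM (-0.21 ± 0.07, adjusted p = 0.0204). The fall of MCM3 missed the threshold when vehicle B, vehicle C or panobinostat A was left out (adjusted p = 0.0652, 0.0697 and 0.0540), and also under scaling by library size or by upper quartile (0.226 and 0.389). The ring is built with 1 copy of each subunit, but its transcripts were not at equal levels per length: with vehicle MCM7 stood at 177 ± 7.77, MCM4 at 175 ± 4.55, MCM3 at 157 ± 6.85, MCM6 at 69.3 ± 4.01, MCM2 at 65.9 ± 1.87 and MCM5 at 36.9 ± 1.8 FPKM. MCM7 and MCM4 did not differ beyond their spread, nor did MCM6 and MCM2. This order rests on the gene lengths behind the deposited FPKM. In vehicle CPM, MCM5, MCM6 and MCM2 lay closer together (282 ± 11.3, 297 ± 19.6 and 336 ± 10.8). With panobinostat MCM3 was the highest of the 6 (146 ± 7.48 FPKM) and MCM5 remained the lowest (15.8 ± 0.426 FPKM). The MCM5 to MCM2 ratio was 0.600, 0.556 and 0.527 with vehicle and 0.345, 0.310 and 0.343 with panobinostat. It did not overlap between arms (log2 difference -0.75, exact two-sided permutation p = 0.1, the smallest that 3 against 3 allows, adjusted over 8 ratios 0.16).

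**Figure D3:**
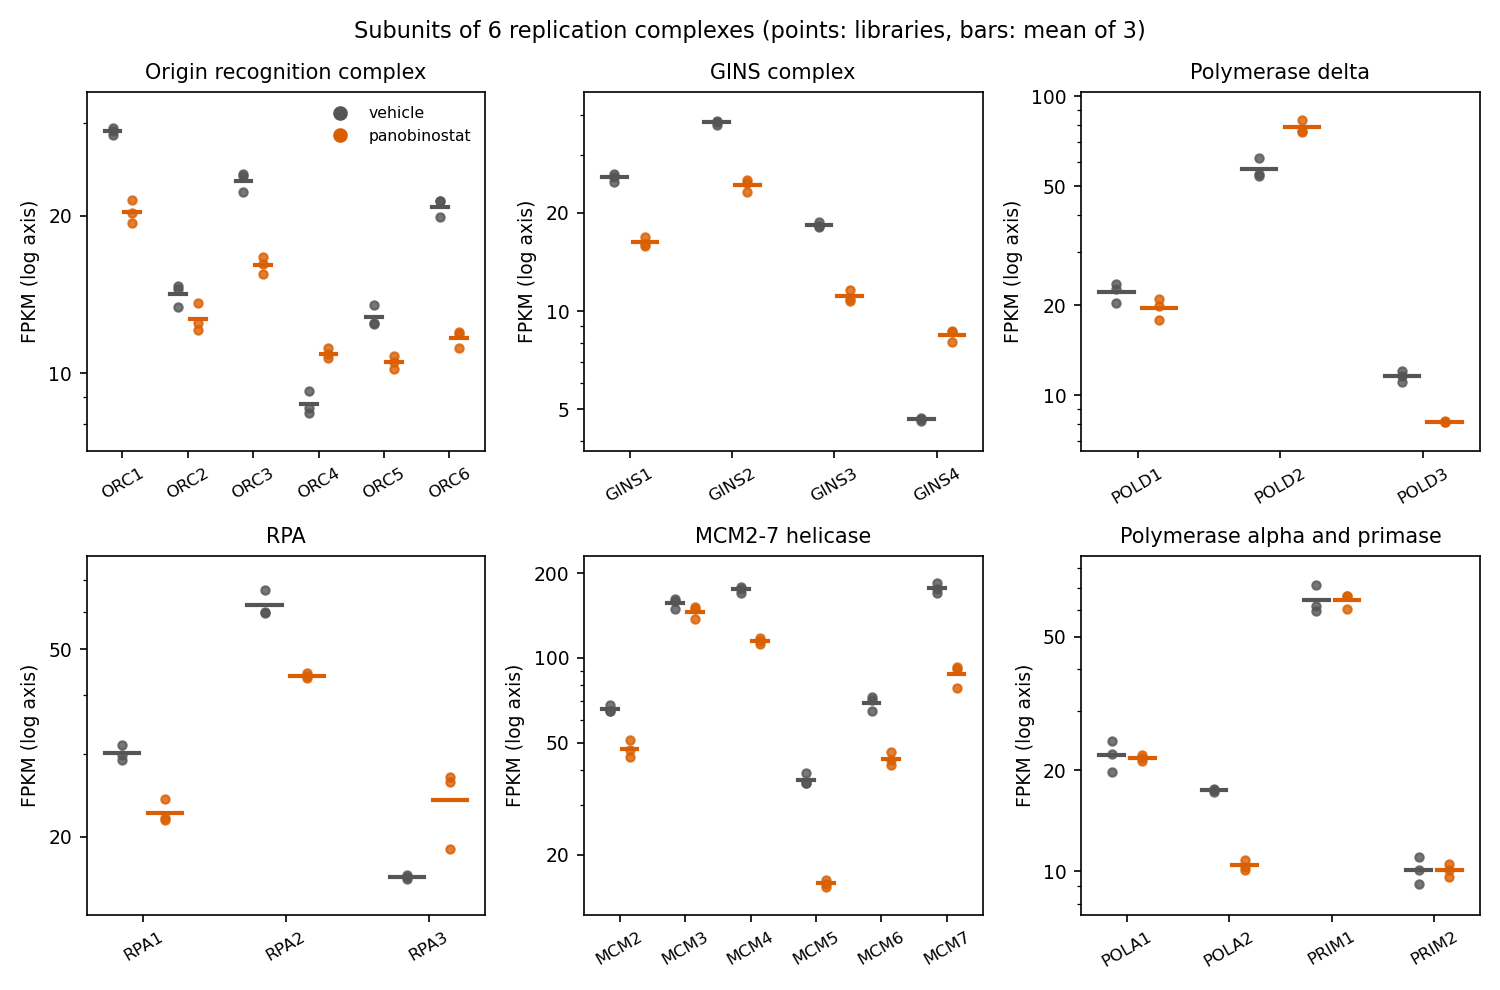
FPKM (log axis) of each subunit of ORC, GINS, polymerase delta, RPA, the helicase ring and polymerase alpha with primase in each library (points) with the mean of 3 (bars), vehicle in grey and panobinostat in orange. ORC4, GINS4, POLD2 and RPA3 are the subunits whose orange points lie above the grey ones.

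Helicase activation showed the widest spread within 1 complex among the 53 genes. Of 8 genes in this group 6 fell (75.0%, against 45.7% of genes in the members' CPM range), 1 rose and 1 did not pass. GINS1, GINS2 and GINS3, subunits of the tetramer that binds the ring, fell together. GINS3 went from 95.2, 97.5 and 100.1 CPM to 52.5, 53.2 and 57.9 CPM (-0.84 ± 0.07). GINS1 went from 108, 106 and 112 to 62.9, 61.6 and 66.9 CPM (-0.77 ± 0.07), and GINS2 from 126, 131 and 129 to 72.4, 77.2 and 80.3 CPM (-0.75 ± 0.07). Their 3 changes lay close together, and none of the 3 had overlapping arms, like 68.8% of all genes tested.

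GINS4, the remaining subunit of the tetramer, rose. It stood at 26.0, 26.9 and 27.0 CPM with vehicle and at 42.1, 45.7 and 45.9 CPM with panobinostat (0.74 ± 0.08, adjusted p = 1.63e-06), a 1.68-fold change. The rise was past the threshold under each of the 17 other settings run. Per length GINS4 was the lowest of all 53 genes with vehicle (4.67 ± 0.0578 FPKM), where GINS2 stood at 37.9 ± 0.563 FPKM. The GINS4 to GINS2 ratio was 0.123, 0.122 and 0.124 with vehicle and 0.347, 0.353 and 0.340 with panobinostat, and the GINS4 to GINS3 ratio went from 0.254 ± 0.00282 to 0.762 ± 0.0338. With panobinostat GINS4 (8.45 ± 0.365 FPKM) was still below GINS3 (11.1 ± 0.485 FPKM). These ratios were chosen after the values were seen and have no test.

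CDC45, which completes the active helicase, fell by 0.68 ± 0.07 on the log2 scale, from 167 ± 8.85 to 104 ± 1.5 CPM, and MCM10, which acts in helicase activation, fell by 0.57 ± 0.07. CDC7, the catalytic subunit that phosphorylates the ring, stood at 202, 231 and 212 CPM and at 203, 184 and 192 CPM, with overlapping arms (-0.16 ± 0.08, adjusted p = 0.0767). It passed when vehicle A or panobinostat A was left out (adjusted p = 0.0212 and 0.0357). DBF4, its activating subunit, stood at 56.1, 70.6 and 65.4 CPM and at 44.5, 46.7 and 44.6 CPM (-0.50 ± 0.09). The DBF4 to CDC7 ratio was 0.216, 0.237 and 0.239 with vehicle and 0.170, 0.197 and 0.181 with panobinostat, with no overlap (log2 difference -0.34, exact permutation p = 0.1, adjusted 0.16).

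Among the 9 genes of primase and the polymerases, 5 fell (55.6%, near the 45.7% of genes in the members' CPM range), 1 rose and 3 did not pass, and their median log2 change was -0.29. POLA2, the accessory subunit of polymerase alpha, stood at 104, 103 and 104 CPM with vehicle and at 56.4, 55.2 and 60.2 CPM with panobinostat (-0.86 ± 0.07, adjusted p = 8.69e-08). Its partners in the same complex did not pass. POLA1, the catalytic subunit, stood at 129, 162 and 148 CPM and at 129, 132 and 137 CPM (-0.14 ± 0.08, adjusted p = 0.144), though it passed without vehicle library A (-0.24, adjusted p = 0.00990). PRIM1 and PRIM2, the primase subunits, changed by -0.11 ± 0.08 and -0.12 ± 0.09 (adjusted p = 0.241 and 0.261). PRIM1 overlaps NACA on the same strand, so its level is uncertain. The POLA1 to POLA2 ratio went from 1.28 ± 0.15 to 2.09 ± 0.0547, a ratio chosen after the values were seen and not tested.

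Polymerase epsilon fell in both subunits listed. POLE, the catalytic subunit, went from 325, 280.3 and 297 CPM to 185, 167 and 163 CPM (-0.81 ± 0.08). POLE2, an accessory subunit, went from 32.5, 35.8 and 33.7 to 20.3, 18.4 and 17.9 CPM (-0.85 ± 0.09). The 2 changes lay within 1 SE of each other.

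Polymerase delta was split among its subunits in the list. POLD1, the catalytic subunit, stood at 118, 103 and 115 CPM with vehicle and at 83.0, 97.5 and 93.6 CPM with panobinostat (-0.29 ± 0.08, adjusted p = 0.00533), and it did not pass with library size alone (-0.18, adjusted p = 0.0641). POLD3, an accessory subunit, fell by 0.61 ± 0.07 on the log2 scale, from 66.3 ± 2.18 to 43.3 ± 0.473 CPM. POLD2, the subunit that joins POLD1 and POLD3, rose, from 236, 209 and 212 CPM to 296, 268 and 276 CPM (0.35 ± 0.07, adjusted p = 0.000731). Its lowest treated library lay above its highest vehicle library. The POLD2 to POLD3 ratio went from 4.93 ± 0.263 to 9.64 ± 0.567, again without a test because it was chosen on these values. The POLD1 to POLE ratio was 1.24, 1.26 and 1.33 with vehicle and 1.54, 2.00 and 1.96 with panobinostat, with no overlap (log2 difference 0.51, exact permutation p = 0.1, adjusted 0.16). The POLA1 to POLD1 ratio overlapped between the arms (0.835, 1.2 and 0.988 against 1.19, 1.04 and 1.12; exact permutation p = 0.5, adjusted 0.571).

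Of 9 genes of the clamp, its loader and RPA, 7 fell (77.8%, against 45.7% of genes in the members' CPM range). PCNA, the sliding clamp, was the highest of the 53 genes per length in both arms (284 ± 41.4 and 202 ± 21.8 FPKM). It stood at 359, 466 and 482 CPM with vehicle and at 249, 301 and 309 CPM with panobinostat (-0.61 ± 0.11). Library A was the lowest of its arm in both groups, and the arms did not overlap. RFC4, a small subunit of the clamp loader, went from 80.1, 103 and 103 to 54.9, 56.5 and 61.4 CPM (-0.73 ± 0.10). RFC2, RFC3 and RFC5 fell less (by 0.34 ± 0.08, 0.24 ± 0.07 and 0.33 ± 0.07 on the log2 scale), and RFC3 did not pass with library size alone (-0.13, adjusted p = 0.107). RFC1, the large subunit, was near 0 (-0.02 ± 0.08, adjusted p = 0.807), at 229.8 ± 15.5 and 226 ± 12.6 CPM.

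RPA also split by subunit. RPA2, the middle subunit, went from 139, 126 and 126 CPM to 84.1, 84.8 and 87.6 CPM (-0.61 ± 0.07), and RPA1, the large DNA-binding subunit, fell by 0.53 ± 0.07 on the log2 scale, from 172 ± 7.52 to 119 ± 7.95 CPM. RPA3, the small subunit, rose from 54.4, 55.6 and 55.9 CPM to 58.1, 83.1 and 82.3 CPM (0.43 ± 0.11, adjusted p = 0.00340). Panobinostat library A stood just above the vehicle values and apart from the other treated libraries. Without it the change was 0.58, and the rise was past the threshold in each of the 17 other settings. The RPA3 to RPA1 ratio was 0.562, 0.551 and 0.529 with vehicle and 0.863, 1.23 and 1.09 with panobinostat, chosen after the values were seen and not tested.

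Both enzymes that finish Okazaki fragments fell. LIG1, the ligase, went from 122, 125 and 126 CPM to 80.4, 87.0 and 92.7 CPM (-0.52 ± 0.07). FEN1, the flap endonuclease, stood at 133, 146 and 165 CPM and at 108, 124 and 138 CPM (-0.26 ± 0.10, adjusted p = 0.0260). FEN1 was the gene that fell with overlapping arms. Its fall missed the threshold when vehicle C, panobinostat A or panobinostat B was left out (adjusted p = 0.143, 0.0959 and 0.0606), and also with library size alone (0.168). FEN1 overlaps FADS2 on the same strand, so its level is uncertain.

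All 6 genes of fork protection and chromatin assembly fell. TIMELESS, the core of the fork protection complex, went from 218, 212 and 231 CPM to 131, 115 and 131 CPM (-0.81 ± 0.08). TIPIN, its partner, went from 35.7, 39.6 and 37.5 to 26.7, 29.1 and 26.9 CPM (-0.45 ± 0.09). The TIMELESS to TIPIN ratio was 2.90, 2.54 and 2.92 with vehicle and 2.32, 1.87 and 2.31 with panobinostat, with no overlap (log2 difference -0.37, exact permutation p = 0.1, adjusted 0.16). CLSPN, claspin, which carries the checkpoint signal at the fork, went from 105, 139 and 127 to 91.4, 72.6 and 81.3 CPM (-0.60 ± 0.10), and WDHD1, which links the helicase to polymerase alpha, fell by 0.36 ± 0.07.

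CHAF1A and CHAF1B are the large and middle subunits of chromatin assembly factor 1, which places histones behind the fork. CHAF1B stood at 59.4, 60.8 and 66.1 CPM with vehicle and at 35.1, 30.6 and 38.1 CPM with panobinostat (-0.84 ± 0.09). It overlaps MORC3 on the same strand, so its level is uncertain. CHAF1A went from 153, 145 and 154 to 109, 93.3 and 101 CPM (-0.58 ± 0.07). The CHAF1A to CHAF1B ratio was 3.06, 2.83 and 2.78 with vehicle and 3.68, 3.63 and 3.16 with panobinostat, with no overlap (log2 difference 0.27, exact permutation p = 0.1, adjusted 0.16).

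Of the 4 genes of nucleotide supply, 3 fell (75.0%, against 45.7% of genes in the members' CPM range). RRM2, the small and cell-cycle regulated subunit of ribonucleotide reductase, went from 613, 606 and 635 CPM to 388, 369 and 388 CPM (-0.70 ± 0.07, adjusted p = 5.16e-07). RRM1, its large subunit, went from 199, 231 and 226 to 145, 163 and 167 CPM (-0.47 ± 0.08), and TK1, thymidine kinase, from 79.2, 71.7 and 77.0 to 50, 54.3 and 57.5 CPM (-0.49 ± 0.08). None of these 3 had overlapping arms, which also held for 68.8% of all genes tested. The RRM2 to RRM1 ratio was 2.59, 2.21 and 2.37 with vehicle and 2.26, 1.91 and 1.96 with panobinostat, and these values overlapped (log2 difference -0.23, exact permutation p = 0.2, adjusted 0.267). DUT, the dUTPase, did not pass (184 ± 12.7 and 168 ± 7.80 CPM, adjusted p = 0.130), but it did without vehicle library A (-0.18, adjusted p = 0.0495).

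**Figure D4:**
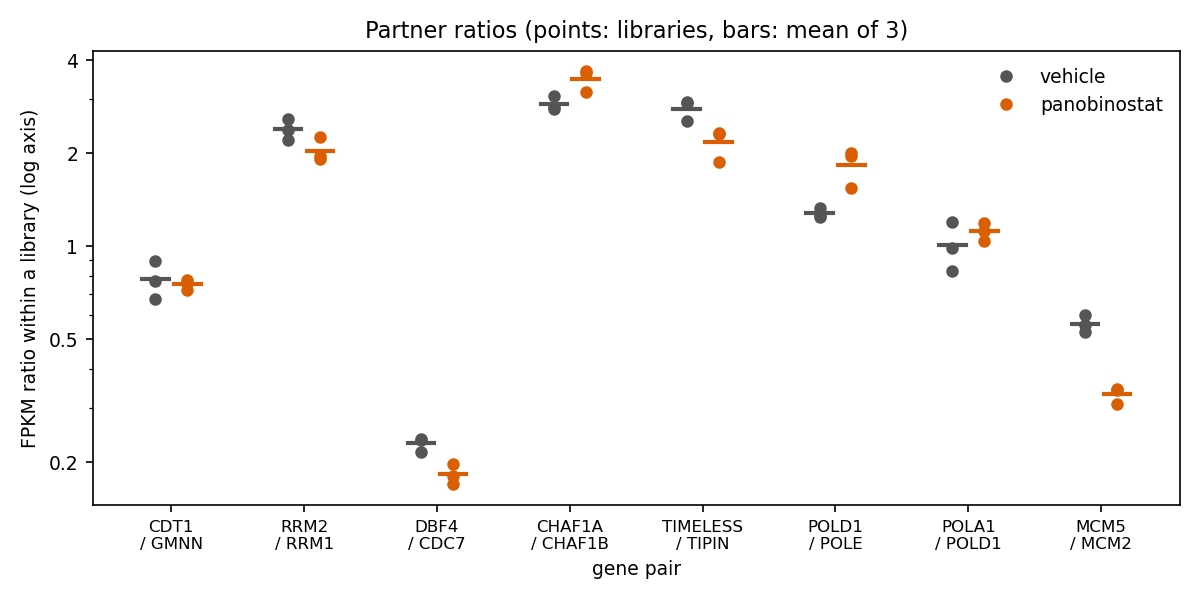
Ratio of FPKM (log axis) between 8 pairs of partner genes in each library (points) with the mean of 3 (bars), vehicle in grey and panobinostat in orange. The arms do not overlap for DBF4 to CDC7, CHAF1A to CHAF1B, TIMELESS to TIPIN, POLD1 to POLE and MCM5 to MCM2, and they overlap for the other 3 pairs.

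Summed over the 53 genes, FPKM were 2358, 2468 and 2507 in the vehicle libraries and 1823, 1900.3 and 1922 in the panobinostat libraries, a fall of 23.0% with no overlap (exact two-sided permutation p = 0.1, the smallest possible). The fall was 30.5% for the helicase genes, 29.1% for fork and chromatin assembly, 23.6% for nucleotide supply, 17.0% for origins and 15.5% for the polymerase and clamp genes, each with the same exact p of 0.1. Differences between steps were not tested, and each sum is led by its most abundant genes. FPKM here scale to the library total, and on TMM-scaled CPM the sum of all members fell by 30.2%. By level per length, the next genes after PCNA with vehicle were MCM7, MCM4, MCM3 and RRM2 (119.9 ± 2.92 FPKM), and the lowest were POLE2 (11.1 ± 0.471), PRIM2 (10.1 ± 0.957), ORC4 and GINS4. POLE2 and PRIM2 did not differ beyond their spread with vehicle. Orders per length rest on the gene lengths behind the FPKM and need not hold in CPM. With panobinostat POLE2 was the lowest (6.63 ± 0.501 FPKM), next to CHAF1B (7.02 ± 0.720 FPKM), and MCM5 moved from position 22 to position 37 in the order of levels.

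Of 156 related genes outside the list 154 were tested, of which 90 fell (58.4%) and 19 rose, with a median log2 change of -0.29. The shares that fell among all genes tested and among genes in the members' CPM range, 31.5% and 45.7%, are the background for this count and for each list below. Of 13 other licensing and initiation factors, 11 fell and 0 rose, among them MCM9, a helicase of repair (-0.85 ± 0.09), and MCMBP, an MCM-binding chaperone (-0.69 ± 0.07). Of 15 other polymerase and clamp genes, 9 fell and 1 rose. POLDIP2 and POLE3 fell by 0.70 ± 0.07 and 0.56 ± 0.07. POLD4, the small subunit of polymerase delta, had 20 counts over the vehicle arm and rose from 0.416 ± 0.178 to 2.06 ± 0.0978 CPM, so the filter kept it through the treated arm. Of 24 other nucleotide synthesis genes, 16 fell and 2 rose. CTPS2, a CTP synthase, fell by 1.42 ± 0.10 and TYMS, thymidylate synthase, by 1.40 ± 0.11. RRM2B, the alternative small subunit of ribonucleotide reductase, rose by 0.59 ± 0.10 and PPAT, the first enzyme of purine synthesis, by 0.17 ± 0.07. The RRM2B to RRM2 ratio went from 0.0470 ± 0.00449 to 0.115 ± 0.0135, so RRM2 stayed the more abundant transcript per length. That ratio, too, was picked after the values were seen and has no test.

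Of 8 S phase checkpoint genes tested, 5 fell and 1 rose: CDC25A, a CDK-activating phosphatase, fell by 1.13 ± 0.08, CHEK1 by 0.60 ± 0.09, and ETAA1, an activator of ATR, rose by 0.43 ± 0.08. Of 9 genes of replication coupled proteolysis, 7 fell and 1 rose, with CUL1 and CUL4A falling by 1.13 ± 0.07 and 0.74 ± 0.08 and CUL4B rising by 0.32 ± 0.08. Of 13 histone chaperones and histone mRNA factors, 7 fell (53.8%, near the 45.7% of the CPM range) and 2 rose. NASP, a histone H3-H4 chaperone, fell from 441 ± 68.1 to 198 ± 15.1 CPM and RBBP4 fell by 0.48 ± 0.07, while ASF1A and ASF1B, chaperones that pass histones to the assembly factors, rose by 0.53 ± 0.07 and 0.39 ± 0.07. Of 13 topoisomerase and cohesion genes, 10 fell and 1 rose. TOP3A and TOP1 fell by 0.85 ± 0.08 and 0.81 ± 0.09, and TOP2A rose from 1498 ± 125 to 1909 ± 79.4 CPM.

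Among regulators of the G1/S step, 14 of 29 fell (48.3%) and 7 rose, shares near those of genes in the members' CPM range (45.7% and 24.2%). CDK6 fell by 1.19 ± 0.10 and CDKN1B, a CDK inhibitor, by 1.00 ± 0.09. CCND2, a D-type cyclin, was close to undetected with vehicle: its 3 vehicle libraries held 2 counts and its 3 panobinostat libraries 537. The filter kept it through the treated arm alone, and it is counted among the 7 that rose. Scaled for depth, the ratio was 261, and the exact 95% interval, which covers counting error only, ran from 72.0 to 2162. E2F5 rose by 1.12 ± 0.26, at a low level (2.22 ± 0.252 CPM with panobinostat). More abundant E2F genes went down: E2F1 by 0.64 ± 0.07 and E2F2 by 0.76 ± 0.07. E2F3, E2F4 and E2F7 fell by 0.27 ± 0.08, 0.38 ± 0.10 and 0.27 ± 0.11. E2F6 rose by 0.31 ± 0.09, and E2F8 did not pass (0.19 ± 0.12). CDKN1A, another CDK inhibitor, rose by 0.32 ± 0.09. In the G2/M list 11 of 30 genes fell (36.7%, which lies between the 31.5% of all genes tested and the 45.7% of genes in the members' CPM range), 4 rose and 15 did not pass, with a median of -0.15. CCNB2 and FOXM1 fell by 0.62 ± 0.07 and 0.56 ± 0.09, and CDK1 and CENPA rose by 0.54 ± 0.09 and 0.51 ± 0.13. The share that fell in the replication genes was not tested against the share in any of these lists.

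**Figure D5:**
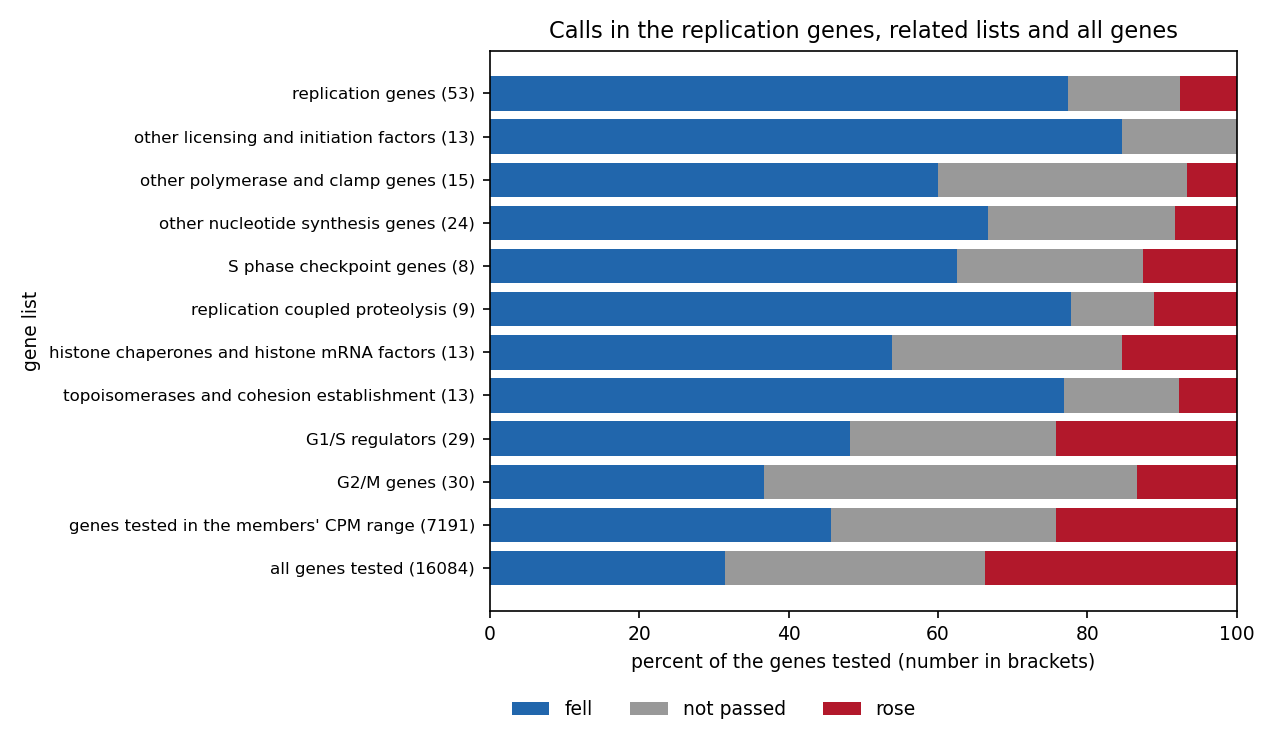
Percent of the genes tested that fell, did not pass or rose in the 53 replication genes, 9 related lists, the genes of the members' CPM range and all genes tested; numbers in brackets are genes tested. The blue part is 77.4% for the replication genes, 36.7% for the G2/M genes and 31.5% for all genes.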

How the data were processed

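The gene counts are the authors' deposited values; per the file headers they come from featureCounts 1.5.0-p3, run by strand (option 2) on Ensembl release 84, whereas the submitters' processing notes give version 1.5.1 along with Novoalign 2.8, Subread and hg38. The header names 9 alignment files. Only 6 of those libraries are in the tables used here. The authors' deposited FPKM equal counts divided by gene length and column total: with the length solved from each gene's deepest library, all 64991 values resting on at least 100 counts were matched to 1%. Symbols and coordinates came from GENCODE release 29.

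The low-count filter was filterByExpr (a count of 10, a total of 15). TMM factors were applied, and panobinostat was compared with vehicle by the quasi-likelihood test in edgeR 4.0.16 (R 4.3.3), adjusted over all genes. The SE is the log2 change divided by the square root of F. "Fell" and "rose" mean an adjusted p of 0.05 or less. The members and lists were chosen with earlier results of these data known. Values by library are given for the 3 largest changes of each role group, the members that rose and the partner pairs. From each related list, up to 2 genes were named in each direction (mean of 1 CPM or more). The other E2F genes and CDKN1A were named after the values were seen. MCM5 has no promoter window, so MCM7 is shown. For 12 members with several windows, the one nearest the GENCODE start was used, and in 40 of 47 windows the last 30 bases lay in a GENCODE transcript. The edgeR steps were run on simulated data in which few genes changed. In these data most genes changed, so that run does not check the scaling used here. DESeq2 1.42.0, other scalings and filters, a replicate block, and limma 3.58.1 on log2(FPKM + 1) or log2(FPKM + 0.1) were alternatives.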

Additional observations from a re-analysis of the deposited data

How the results depend on the processing

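Over 17 other settings (DESeq2, 3 other scalings, 2 other filters, the letter as a replicate block, an adjusted p of 0.01, each library left out, and limma on FPKM), 36 to 44 members fell and 3 or 4 rose. With 1 library left out, 40 to 44 members fell and 3 to 4 rose. Over all genes, 3540 to 5471 fell in the 17 settings, with 13004 to 22717 genes tested. Direction and call held in every setting for 39 of 53 members, 36 of them genes that fell. Library size alone and upper quartile scaling moved the median of all genes up by 0.11 and 0.14 (log2), and 36 members fell under each. Of the 16084 genes tested, 4046 and 3827 fell under them, against 5066 in the main fit. The share of rises among all genes changed went from 51.7% to 61.0% and 63.2%. Falls of ORC2, MCM3, POLD1, RFC3 and FEN1 did not pass there. Signs that turned were those of genes near 0: GMNN (0.00), PRIM1 (0.02), PRIM2 (0.02) and DUT (0.01) with upper quartile scaling, PRIM1 (0.00) and PRIM2 (0.00) with limma, and RFC1 with library size alone (0.09), upper quartile scaling (0.12), a mean of 1 CPM (0.01) and limma (0.09), while with 1 library left out it ran from -0.07 to 0.03. The CDT1 to GMNN difference ran from -0.14 to 0.06 with 1 library left out, the latter without vehicle A. The summed level differed by -0.38 (log2) in FPKM and -0.52 in TMM-scaled CPM. These FPKM carry no TMM factors and weigh genes by length, and the share of each in this gap was not tested. Same-letter libraries deviated together at correlations of 0.081, -0.021 and 0.104, and unlike letters at -0.119 to 0.047. With 3 libraries an arm these values cannot show whether the letters pair libraries across the arms. With the replicate block 41 members fell and 4 rose. No member had fewer than 285 counts in a library, but low related genes such as POLD4 and CCND2 rest on few counts.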
